A study of Mus musculus with 8 samples.

Results

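Homeobox and related patterning transcription factors were examined in mouse STHdh striatal cells, with and without transfected Bcl11b. The members were all array probes whose gene symbol belongs to the Hox, Dlx, Lhx, Irx, Pax, Meis, Pbx, Msx, Nkx, Emx, Otx, Gsx or Tbx families or to the sine oculis homeobox family, which gave 141 of 25697 probes and 108 of 18120 gene symbols. STHdh cells are a conditionally immortalized line of striatal progenitors from wild-type mouse embryos, and the results below describe this 1 line. On separate Illumina MouseRef-8 v2 arrays, 4 sets of cells transiently transfected with a pcDNA3.1 plasmid carrying mouse Bcl11b (beta isoform) were compared with 4 sets that received the empty pcDNA3.1 plasmid (mock), 2 days after transfection. The labels call the mock cells wild-type, and both groups carry the same wild-type Hdh genotype. Whether the sets came from separate cultures is not given in more detail, so the p-values measure the spread between these arrays. The only Bcl11b probe was not detected on any array, so these arrays did not measure the level of the transfected gene. The paper's methods state that transfection was checked in duplicate sets of cells, by GFP counts and by qPCR of Bcl11b mRNA.

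These proteins bind DNA through a homeodomain, a paired domain or, in the Tbx family, a T-box, and are best known for giving cells of the embryo their position. Hox genes lie in 4 clusters, are named by paralog group, and are used in order along the body axis from the hindbrain backwards, whereas the forebrain forms without them. Otx, Emx, Dlx, Gsx and Lhx factors and Six3 pattern the forebrain, and Dlx and Gsx factors mark the progenitors of the ventral telencephalon from which the striatum arises. Pbx and Meis proteins are partners of Hox proteins on DNA. Msx, Tbx3, Irx3 and Irx5 are also well known from limb, face and other mesenchyme.

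Each value is the log2 of the quantile-normalized signal of a probe, with signals under 1 set to 1. A probe was called detected on an array when its deposited p-value against the negative control beads was under 0.01, and the dimmest detected signal of an array lay between 6.19 and 6.59 on this scale. Between 10121 and 10784 probes were detected per array. Before normalization every Bcl11b array was dimmer than every mock array, with median signals of 20.1 to 30.2 against 31.6 to 53.9. What caused this gap was not tested. For probes detected on all 8 arrays, the median log2 change was -0.68 without normalization and -0.026 after quantile normalization. It was 0.067 with arrays divided by their medians, so the size of a change depends on the normalization. After quantile normalization, the arrays did not divide cleanly by transfection. Over 9338 other probes detected on all 8 arrays, Bcl11b replicate 4 correlated better with mock replicate 2 (r = 0.981, across probes) than with Bcl11b replicates 1, 2 and 3 (r = 0.929, 0.933 and 0.935). Bcl11b replicates 1 to 3 correlated with each other at 0.988 to 0.995. The first principal component of the deviations from the group means held 65.8% of them and put mock replicates 2 and 4 and Bcl11b replicate 4 on one side. Results are therefore also given without these 3 arrays, on mock replicates 1 and 3 and Bcl11b replicates 1 to 3, a choice made after seeing the data. In RNA from a whole culture, fewer cells of a type and less RNA per cell cannot be told apart.

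Of the 141 member probes, 33 carrying 29 symbols were detected on at least 1 array and 22 carrying 20 symbols on all 8 arrays. The remaining 108 probes were detected on no array. The share detected at least once was 23.4%, against 45.7% of all probes, and the share detected on all 8 arrays 15.6%, against 36.4%. Hox genes made up 10 of the 29 detected symbols, and they came from 2 of the 4 clusters. In the Hoxb cluster 7 of 10 genes were detected, namely Hoxb2, Hoxb4, Hoxb5, Hoxb6, Hoxb7 and Hoxb9 on all 8 arrays and Hoxb3 on 2 mock arrays and 1 Bcl11b array by 1 of its 3 probes. These genes lie side by side on the chromosome, interrupted by Hoxb8, whose probe was not detected. Hoxb1 and Hoxb13, at the 2 ends, were not detected either. In the Hoxc cluster 3 of 9 genes were detected, Hoxc6 on all 8 arrays, Hoxc9 on 7 and Hoxc10 on 5 by 1 of its 2 probes. None of the 20 Hoxa and Hoxd genes on the array was detected by any of their 28 probes.

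**Figure D1:**
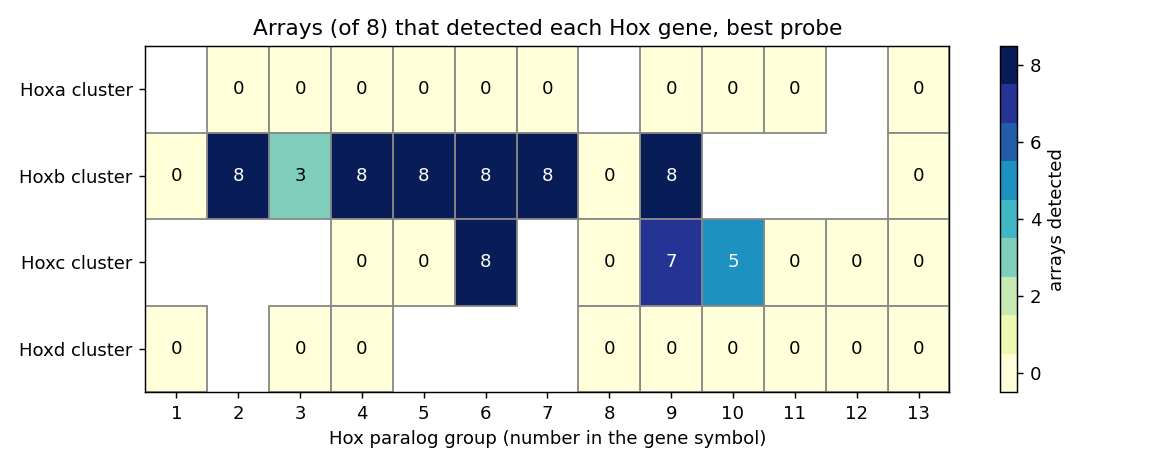
Hox genes by cluster (rows) and paralog group (columns), with the number of the 8 arrays that detected the gene (p-value under 0.01) by its best probe. White squares have no gene in the mouse or are not shown. Numbers above 0 run from Hoxb2 to Hoxb9 with a gap at Hoxb8, and stand at Hoxc6, Hoxc9 and Hoxc10, while the Hoxa and Hoxd rows are at 0.

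Genes best known from the forebrain were detected in the same cultures. Of 14 forebrain members with a probe under the names of the rule, 5 were detected. Otx1, which patterns the front of the brain, Dlx1 and Dlx2, which drive the development of ventral telencephalic neurons, and Lhx2, which marks cortical and eye progenitors, were each detected on all 8 arrays. Pbx3 was detected on 7 arrays by both of its brighter probes. Dlx5, Emx2, Lhx5, Lhx6, Lhx8, Otx2, Pax6, Six3 and Six6 were not detected. Gsx1, Gsx2 and Nkx2-1 stand on the array under their older names Gsh1, Gsh2 and Titf1, outside the rule, and were not detected by any of their probes. Dlx6, Emx1, Meis2 and Meis3 were not analysed here.

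Of 22 genes of the mesenchyme and limb list with a probe, 7 were detected. Irx3, Irx5, Msx1 and Tbx3 were detected on all 8 arrays, Dlx3 on 7 and Six4 on 5. Among 13 genes of the midbrain, hindbrain, eye and spinal list, Lhx1 was detected on all 8 arrays and Pax2 on 5. Of the TALE factors, the class of homeodomain proteins to which Meis and Pbx belong, Meis1, Pbx2 and Pbx3 were detected and Pbx4 was not. Tbx20, a cardiac and motor neuron factor, was detected on 6 arrays, and Nkx2-5, a cardiac factor, on 5. The detected members thus included forebrain factors and Hox genes from paralog groups 2 to 10, other than group 8, side by side. Whether single cells held both was not measured. In the remaining families most genes were at background. Of 9 Pax genes Pax2 alone was detected, of 13 Tbx genes Tbx3 and Tbx20, of 9 Nkx genes Nkx2-5, of 8 Lhx genes Lhx1 and Lhx2, of 6 Irx genes Irx3 and Irx5 and of 6 Dlx genes Dlx1, Dlx2 and Dlx3.

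The label of the cells was set against marker genes. None of the 8 measured striatal projection neuron markers was detected, and of 6 neuronal markers Stmn2 alone was. Of 7 neural progenitor markers, Fabp7, Hes5, Pax6 and Sox1 were not detected and 3 were, among them Nes and Sox2. Of 10 fibroblast or mesenchyme markers 7 were, Col1a1, Col3a1, Dcn, Pdgfra, Pdgfrb, Prrx1 and Twist1, and of 6 mural markers Acta2, Cspg4 and Tagln were. No oligodendrocyte, microglia or blood, or endothelial marker was detected, and Slc1a3 was the 1 detected astrocyte marker. The summed signals of the neural progenitor markers ranged from 6112 to 8157 on the mock and from 5380 to 6667 on the Bcl11b arrays, and those of the mesenchyme markers from 5229 to 7711 and from 6332 to 7736, so both sets of ranges overlapped. The summed signals of the mural markers were 23584 to 30398 and 29044 to 33631. Those of the endothelial markers, none of them detected, were 37.1 to 53.9 on the mock and 89.4 to 93.5 on the Bcl11b arrays and did not overlap. Single markers moved in both directions. Among the mesenchyme markers, Pdgfra was at -0.70 (limma adjusted p = 0.00296) and Pdgfrb at -0.49 (0.309) in Bcl11b-transfected over mock cells on the log2 scale, whereas Dcn was at 1.47 (0.0492) by its probe detected on all 8 arrays. Among the neural progenitor markers, the probes of 1 gene did not give 1 answer. The 2 Nes probes were at 0.43 (0.304) and -0.00071 (1), and the 2 Sox2 probes at -0.71 (0.438) and 0.20 (1). The part of cell makeup in the results below was not tested.

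The Hox genes varied mostly between arrays of the same group. For Hoxc9, the mock arrays read 8.62, 6.996, 8.03 and 6.87 (replicates 1 to 4) and the Bcl11b arrays 8.18, 8.13, 8.24 and 6.17. Mock replicates 2 and 4 and Bcl11b replicate 4 were the low ones, and the spread within each group (SD 0.84 and 1.00, n = 4 each) far exceeded the difference between the group means of 0.047. Hoxb4 read 7.89, 7.48, 7.81 and 7.44 on the mock arrays and 8.07, 7.80, 7.96 and 6.38 on the Bcl11b arrays. Hoxc6 read 9.46, 8.63, 8.90 and 8.54 against 8.98, 9.03, 8.98 and 8.33, and Hoxb2 8.07, 7.40, 8.27 and 7.004 against 8.23, 7.89, 7.57 and 7.40. In all of these genes the lowest values belonged to the same arrays, mock replicates 2 and 4 and Bcl11b replicate 4. Hoxb9 ran the other way, with 8.76, 9.42, 9.14 and 9.35 on the mock and 9.14, 8.90, 8.99 and 9.39 on the Bcl11b arrays, so that these 3 arrays were its highest. Neighbouring genes of 1 cluster therefore did not vary as a block. Hoxb7 lay between 10.45 and 11.10 on the mock and between 10.42 and 10.82 on the Bcl11b arrays, Hoxb6 between 8.17 and 9.08 and between 8.49 and 8.87, and Hoxb5 between 8.77 and 9.63 and between 8.36 and 9.05.

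**Figure D2:**
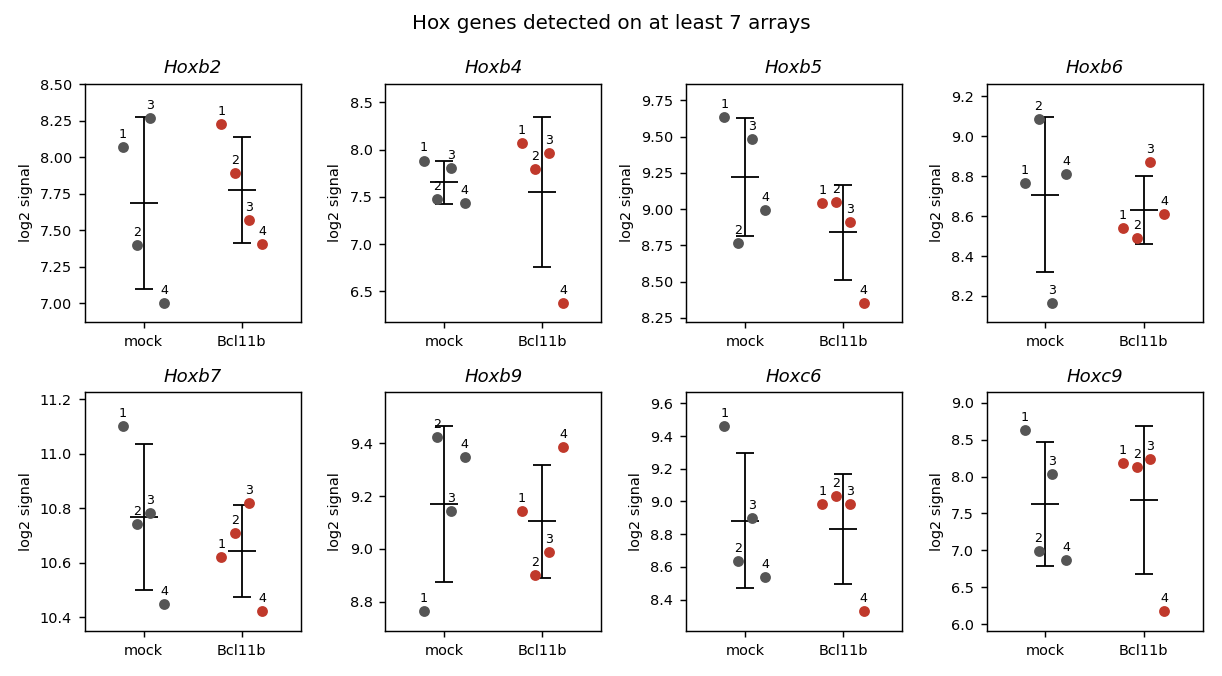
Log2 signal of Hox genes detected on at least 7 arrays, on mock (grey) and Bcl11b (red) arrays. Points are arrays, labelled by replicate number, bars show mean ± SD (n = 4), and each axis covers its own range. Mock replicates 2 and 4 and Bcl11b replicate 4 are the lowest arrays for Hoxb2, Hoxb4, Hoxc6 and Hoxc9 and the highest for Hoxb9.

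None of the Hox genes detected on all 8 arrays differed between the groups beyond this spread. Their log2 fold changes in Bcl11b-transfected over mock cells lay between -0.38 (Hoxb5, standard error 0.25) and 0.088 (Hoxb2, standard error 0.33), with adjusted p-values from limma of 0.73 or more. The values were -0.10 for Hoxb4, -0.079 for Hoxb6, -0.13 for Hoxb7, -0.065 for Hoxb9 and -0.051 for Hoxc6. The standard errors, up to 0.40 for Hoxb4, leave changes of moderate size within the error. Without mock replicates 2 and 4 and Bcl11b replicate 4, Hoxb5 was lower by -0.58 at an adjusted p of 0.133 and was past the unadjusted threshold given next, while Hoxb2 was at -0.28 and Hoxb4 at 0.098.

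Outside the Hox clusters, Bcl11b-transfected cells had lower signals of several patterning factors. By the looser threshold (limma's unadjusted p-value under 0.05 and a log2 fold change of at least 0.32 in size), 13 of the 141 member probes differed, a share of 9.22% against 9.02% of all 25697 probes. Of these, 11 were lower and 2 higher, where 5.81% of all probes were lower and 3.2% higher. For 4 of the 13 probes, no array gave a detected signal. Among the 22 member probes detected on all 8 arrays, 8 passed, all lower in Bcl11b-transfected cells, where 10.5% of the 9360 probes detected on all 8 arrays were lower and 3.8% were higher by the same rule. For 6 of the 22 probes every Bcl11b array was dimmer than every mock array, against 7.38% of those 9360, and for none was it brighter, against 2.5%. The median log2 fold change of the 22 probes was -0.12 and that of the 9360 was -0.026. With signals divided by the array median and no quantile step, 8 member probes were lower and 3 higher, and over all probes the split turned from 823 higher and 1494 lower to 1241 higher and 1118 lower. Past an adjusted p-value of 0.10 were 4 member probes, all lower (2.84%, against 0.981% of all probes, 0.627% lower and 0.354% higher). Meis1, Tbx3 and Irx3 were detected on all 8 arrays, so that 3 of 22 probes passed where 1.27% of the 9360 were lower, and Irx1 was detected on none.

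**Figure D3:**
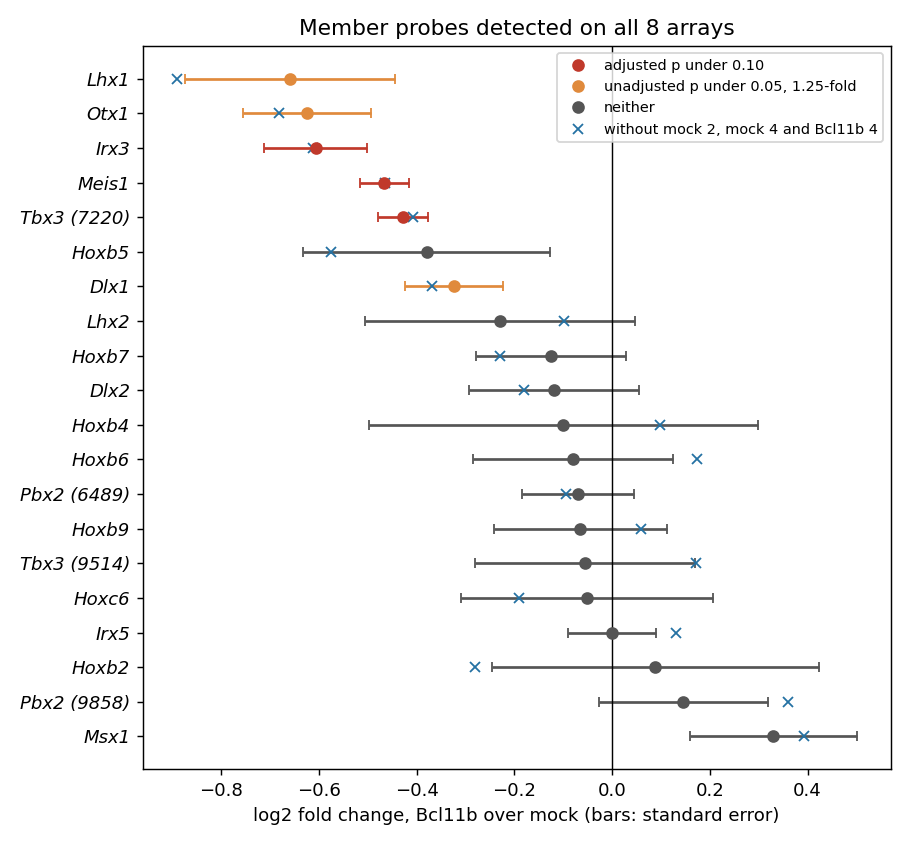
Log2 fold change (Bcl11b over mock, n = 4 arrays each) of 20 member probes detected on all 8 arrays, with standard errors as bars. Colours mark the thresholds passed, and crosses show the value without mock replicates 2 and 4 and Bcl11b replicate 4. Lhx1, Otx1, Irx3, Meis1 and 1 Tbx3 probe lie farthest to the left, and the Hox genes other than Hoxb5 lie around 0.

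Meis1 encodes a TALE homeodomain protein that binds DNA with Hox and Pbx proteins. Its probe read 9.09, 8.99, 9.10 and 9.20 on mock replicates 1 to 4 and 8.62, 8.71, 8.62 and 8.58 on the Bcl11b arrays. The groups did not overlap, and the distance between them was larger than the range of either. Meis1 was 1.38-fold lower in Bcl11b-transfected cells (-0.47 on the log2 scale, standard error 0.049, with a limma adjusted p of 0.0281), and -0.46 without the 3 arrays that stood apart (adjusted p = 0.0846). The 2 Pbx2 probes detected on all 8 arrays gave 0.15 and -0.070, and the 2 Pbx3 probes detected on 7 arrays 0.33 and 0.37, none past the threshold. Without the 3 arrays, the first Pbx2 probe was at 0.36 and passed the unadjusted threshold as higher. Meis1 thus passed as lower where no Pbx2 or Pbx3 probe did, and the difference between these genes was not tested.

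Tbx3, a T-box repressor active in limb and heart development, was carried by 3 probes that did not give 1 answer. The first (ILMN_1247220) read 9.22, 9.17, 9.21 and 9.36 on the mock and 8.79, 8.91, 8.76 and 8.78 on the Bcl11b arrays, without overlap. It was 1.35-fold lower (-0.43 on the log2 scale, standard error 0.052, with a limma adjusted p of 0.0389), and -0.41 without the 3 arrays that stood apart (adjusted p = 0.141). The second (ILMN_3139514) was also detected on all 8 arrays and read 8.24, 8.98, 8.29 and 8.88 against 8.26, 8.58, 8.46 and 8.88, with groups that overlapped fully (-0.055, standard error 0.23, adjusted p = 1). Its low mock arrays were replicates 1 and 3 and its high ones replicates 2 and 4. The third Tbx3 probe was not detected. Which transcripts the probes stand for is not given in the table used here, so a lower level of Tbx3 rests on 1 probe.

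Irx3, an Iroquois factor of neural tube and limb patterning, read 9.97, 9.81, 9.997 and 10.30 on the mock and 9.39, 9.36, 9.39 and 9.51 on the Bcl11b arrays. It was 1.52-fold lower without overlap (-0.61 on the log2 scale, standard error 0.11, with a limma adjusted p of 0.0983). Without the 3 arrays that stood apart it was -0.61 with a limma adjusted p of 0.0165. Irx3 was no longer past the adjusted threshold without mock replicate 1 or 3 or any 1 Bcl11b array. Its cluster neighbour Irx5, detected on all 8 arrays, lay between 10.82 and 11.18 on the mock and between 10.95 and 11.07 on the Bcl11b arrays, a log2 fold change of -0.00075 (standard error 0.09) that was 0.098 when arrays were divided by their medians. Irx3 and Irx5 thus gave different values in the same arrays, and the difference between them was not tested.

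The promoter stretches of Meis1 and Irx3 are shown because these were the members past the adjusted threshold with an entry in the RefSeq promoter table used here (build GRCm38.p6). Each is the 250 bases before the annotated start, 5′ to 3′ on the gene's strand, with CpG dinucleotides in capitals. Meis1 lies at chr11:19018970-19019219 and Irx3 at chr8:91801655-91801904, both on the minus strand.
Meis1: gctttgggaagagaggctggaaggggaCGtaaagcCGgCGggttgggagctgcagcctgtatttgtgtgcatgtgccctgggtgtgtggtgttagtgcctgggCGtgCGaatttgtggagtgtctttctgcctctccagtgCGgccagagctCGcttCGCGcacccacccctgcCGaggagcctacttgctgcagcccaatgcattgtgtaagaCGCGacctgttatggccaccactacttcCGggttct
Irx3: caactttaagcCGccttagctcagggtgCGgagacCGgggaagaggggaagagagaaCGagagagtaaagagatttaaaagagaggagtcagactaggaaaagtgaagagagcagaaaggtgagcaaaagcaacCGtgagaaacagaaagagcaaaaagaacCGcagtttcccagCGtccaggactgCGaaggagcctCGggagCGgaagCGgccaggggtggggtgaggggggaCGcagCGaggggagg
Both stretches held 13 CpG dinucleotides, against a median of 6 and quartiles of 2 and 16 over 32851 such windows. Neither held, on either strand, the nuclear receptor half-site AGGTCA, the Meis core TGACAG, the homeodomain core TAATTA or the GC box GGGCGG, which occurred in 14%, 15.9%, 4.84% and 32.7% of the windows.

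Otx1 read 12.16, 12.34, 12.30 and 12.43 on the mock and 11.61, 11.69, 11.42 and 12.01 on the Bcl11b arrays. The groups did not overlap, with Bcl11b replicate 4 closest to the mock arrays, and Otx1 was 1.54-fold lower (-0.62 on the log2 scale, standard error 0.13, with a limma adjusted p of 0.165). Dlx1 read 9.92, 10.02, 10.05 and 10.13 against 9.63, 9.68, 9.54 and 9.98. Here Bcl11b replicate 4 lay within the mock range, and the lower mean (log2 change -0.32, standard error 0.10, adjusted p = 0.332) lay at the limit of the fold threshold and was under it without mock replicate 3 or 4, without Bcl11b replicate 1, 2 or 3, and with arrays divided by their medians. Without Bcl11b replicate 4, both genes passed the adjusted threshold, Otx1 at -0.74 (limma adjusted p = 0.0612) and Dlx1 at -0.41 (0.0888). Without the 3 arrays that stood apart neither passed it, with Otx1 at -0.68 (limma adjusted p = 0.162) and Dlx1 at -0.37 (0.185). The cluster neighbour of Dlx1, Dlx2, had a range of 9.90 to 10.30 on the mock and 9.56 to 10.28 on the Bcl11b arrays, a difference of -0.12 (standard error 0.17, adjusted p = 0.957). For Lhx2 the range was 7.69 to 8.76 on the mock and 8.01 to 8.61 on the Bcl11b arrays, and the means differed by -0.23 (standard error 0.28). Without mock replicate 3, its dimmest array, Lhx2 was at -0.48 and passed the unadjusted threshold. Without the 3 arrays that stood apart, Lhx2 was at -0.098 and did not pass. Of the forebrain members, therefore, Otx1 and Dlx1 passed the unadjusted threshold over all 8 arrays and Dlx2, Lhx2 and Pbx3 did not.

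**Figure D4:**
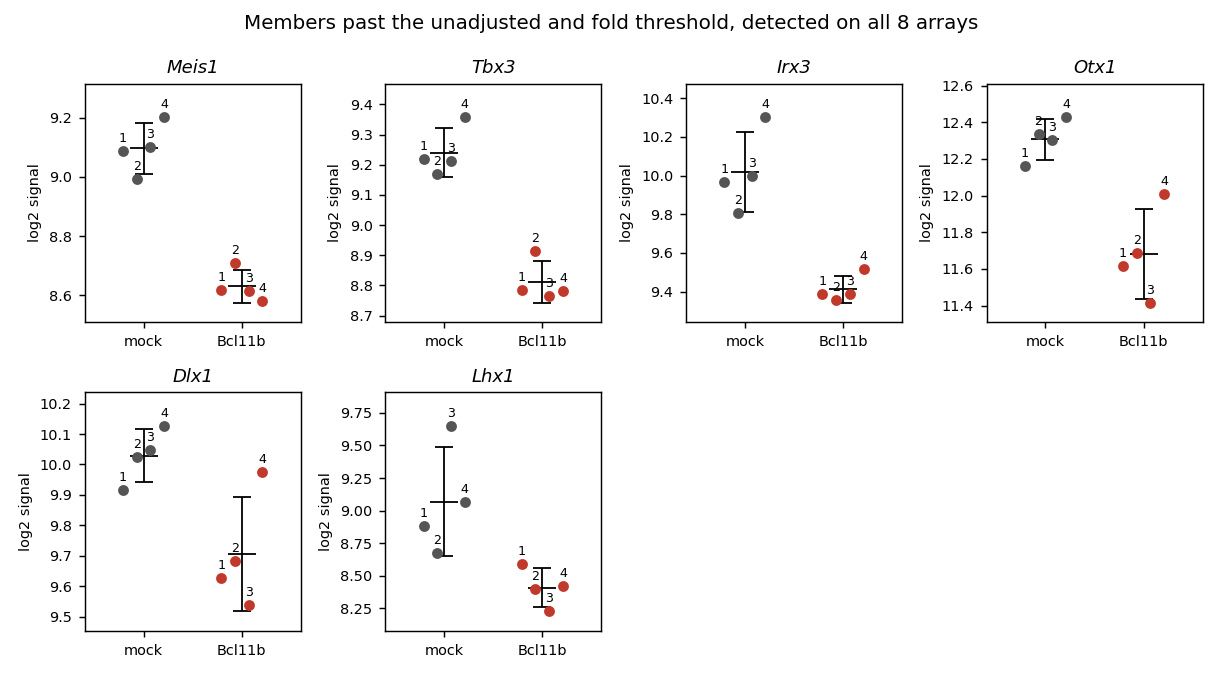
Log2 signal on mock (grey) and Bcl11b (red) arrays of 6 member probes detected on all 8 arrays that passed the unadjusted p-value and fold thresholds. Points are arrays, labelled by replicate number, bars show mean ± SD (n = 4), and each axis covers its own range. The groups are apart for Meis1, Tbx3, Irx3, Otx1 and Lhx1, while Bcl11b replicate 4 reaches the mock arrays for Dlx1.

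Lhx1, a LIM homeodomain factor of spinal and cerebellar neurons, read 8.88, 8.68, 9.65 and 9.06 on the mock arrays against 8.59, 8.40, 8.23 and 8.42. Mock replicate 3 was high and the groups did not overlap, with a log2 change of -0.66 (standard error 0.22) and a limma adjusted p of 0.353. Without Bcl11b replicate 3 the change was -0.60 and did not pass the unadjusted threshold, nor did the -0.89 without the 3 arrays. Msx1, a repressor of differentiation in mesenchyme, was the detected member with the highest value in the other direction among those found on all 8 arrays, between 8.64 and 9.23 on the mock and between 9.001 and 9.53 on the Bcl11b arrays (log2 change 0.33, standard error 0.17, adjusted p = 0.614), which did not pass. It passed the unadjusted threshold as higher with arrays divided by their medians (0.39) and without mock replicate 2 (0.44), and was -0.37 without normalization between arrays.

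Several members detected on only some arrays lay near the limit of detection. Hoxc9 (8.62 on mock replicate 1), Pax2 (8.04 on Bcl11b replicate 4) and Pbx3 (7.93 on Bcl11b replicate 4) reached signals well above it. Hoxc10 was detected on 1 mock array and on all 4 Bcl11b arrays, with 6.60, 6.04, 5.95 and 6.02 on the mock and 6.85, 6.67, 6.57 and 6.53 on the Bcl11b arrays. Mock replicate 1 lay within the Bcl11b range, and the change of 0.50 (standard error 0.16, with a limma adjusted p of 0.352) no longer passed the unadjusted threshold without mock replicate 2, 3 or 4 or Bcl11b replicate 1 and was -0.22 without normalization between arrays. Pax2, a factor of kidney, eye and midbrain, was likewise detected on 1 mock array and 4 Bcl11b arrays, with 3.31, 7.92, 5.21 and 5.42 against 6.59, 6.68, 6.98 and 8.04. Mock replicate 2 was as bright as the Bcl11b arrays, and the difference was within the spread (adjusted p = 0.685). It passed the unadjusted threshold without mock replicate 2 (2.42), as it did without the 3 arrays that stood apart (adjusted p = 0.281). Of the others, Hoxb3 had a log2 fold change of -0.48, Nkx2-5 of 0.54, the dimmest Pbx2 probe of 0.65, Six4 of -0.27, Tbx20 of -0.037 and Dlx3 of 0.011, and none of them passed. Hoxb3 passed the unadjusted threshold as lower without Bcl11b replicate 2 (-0.70), and this Pbx2 probe as higher without the 3 arrays (0.60). Probes for Hoxc13, Hoxd10 and Irx1 passed the unadjusted threshold without being detected on any array, so no fold change is given for them. Irx1 had an adjusted p of 0.0378, with 4.44, 3.62, 4.36 and 4.92 on the mock arrays and 1.61 on Bcl11b replicate 1, the other Bcl11b arrays being at the floor of the scale, all below the dimmest detected signals.

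Lists of related genes were read from the same fit. Of 24 detected probes of other homeobox and patterning genes, 4 were lower in Bcl11b-transfected cells by the unadjusted and fold rule and none was higher, where 10.5% of the 11755 probes detected on at least 1 array were lower and 4.32% were higher. Cdx2, a regulator of posterior Hox genes, was at -0.56 (adjusted p = 0.169) and Hhex, of endoderm and blood precursors, at -0.35 (adjusted p = 0.191, lost without mock replicate 1), both without overlap. Pou6f1 passed detection on 2 mock arrays but on none with Bcl11b. It read 5.98, 6.12, 6.83 and 6.79 on the mock against 5.73, 5.65, 5.80 and 5.40 (limma adjusted p = 0.295). These values lay near or below the dimmest detected signals, so no fold change is given.

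Of 11 detected probes of retinoic acid pathway genes, which set Hox expression in the embryo, 2 were lower and none was higher. By the same rule 10.5% of the 11755 probes detected on at least 1 array were lower and 4.32% were higher. Nr2f1 encodes the nuclear receptor COUP-TF1, with which Bcl11b protein is known to interact. It read 12.57, 12.48, 12.31 and 12.69 on the mock and 11.91, 11.95, 11.85 and 11.93 on the Bcl11b arrays and was 1.52-fold lower without overlap (-0.60 on the log2 scale, standard error 0.08, with a limma adjusted p of 0.0547, and 0.177 without the 3 arrays). The 2 Rarg probes pointed in opposite directions, at -0.33 (adjusted p = 0.405, failing without mock replicate 1, 2 or 4 or Bcl11b replicate 1, 3 or 4) and 0.78 (adjusted p = 0.666). Against the same shares, 1 of 27 detected probes of Polycomb and Trithorax genes, which keep Hox clusters silent or active, was higher and none was lower. It was an Ezh2 probe (0.34, standard error 0.13, adjusted p = 0.421) that failed when any 1 array other than mock replicate 2 was left out and was at -0.30 without normalization between arrays. Without mock replicate 2 it passed the adjusted threshold (0.46, limma adjusted p = 0.0445). The second Ezh2 probe was at 0.0019.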

How the data were processed

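RNA from 4 mock-transfected and 4 Bcl11b-transfected sets of STHdh cells was measured on Illumina MouseRef-8 v2 arrays. The authors deposited 1 intensity per probe and array, the GenomeStudio average bead signal after background subtraction and without normalization between arrays, and a detection p-value per probe. On each array, 30.6% to 31.6% of probes had a signal of 0 or less. The number of arrays limits the precision.

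After quantile normalization, values under 1 were set to 1. Signals were then log2-transformed and fitted with limma (version 3.58.1, R 4.3.3) over all 25697 probes without covariates, with Benjamini-Hochberg adjustment. Thresholds were those of the study, an adjusted p-value of 0.10, or an unadjusted p-value of 0.05 with a 1.25-fold change. The fit was tested on simulated data. No arrays were identical. Members, lists and tests were chosen with earlier results of these data known. Member probes detected on at least 1 array that passed a threshold are given by array, other detected members by fold change or range, and undetected ones by count. The lists were forebrain, mesenchyme and limb, midbrain to spinal, TALE, other homeobox, Polycomb and Trithorax, and retinoic acid genes, and cell type markers. Of the 108 member symbols 107 are current in RefSeq, and Otx3 is now Dmbx1. Alternatives were no normalization, an offset of 16, neqc, division by each array median, detection filters, a replicate block, limma-trend, arrayWeights and leaving out arrays. Leaving out mock replicates 2 and 4 with Bcl11b replicate 4, and a shift of the lowest signal to 1, were added after seeing the data. Some of the genes examined are not reported here, though they remain in the counts.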

Additional observations from a re-analysis of the deposited data

Results flagged for a closer look

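In 62 groups of 4 arrays that all detected a named probe, 5 held an array far from the other 3, where chance gives about 1 in 20. Bcl11b replicate 4 was low for Hoxb4 (6.38, the others 7.80 to 8.07) and Hoxc6 (8.33, the others 8.98 to 9.03) and high for 1 Pbx3 probe (7.93, the others 7.15 to 7.23). Mock replicate 3 was low for Lhx2 (7.69, the others 8.62 to 8.76). Bcl11b replicate 2 was high for Tbx3 (8.91, the others 8.76 to 8.79).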

How the results depend on the processing

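The 13 member probes past the unadjusted and fold threshold became 32, all lower, without normalization between arrays, where 6963 probes in all passed and the median change over all probes was -0.49. They became 8 when a probe had to reach a detection limit of 0.01 on at least 4 arrays, and 7 to 14 with 1 array left out. The 4 past the adjusted threshold became 1 without normalization and with division by the array median, and that 1 was Irx1, detected on no array. With the 0.01 filter they became 1, which was Irx3. They became 0 with the 0.05 filter, limma-trend, the lowest-signal shift and the replicate block (9, 12, 11 and 10 past the unadjusted threshold). They became 5 with neqc, which added Otx1, and 6 with arrayWeights, which added Otx1 and Dlx1. With 1 array left out they were 0 to 5. Meis1 lost the adjusted call without Bcl11b replicate 3, Tbx3 without mock replicate 1 or 3 or Bcl11b replicate 1 or 3, and Irx3 without mock replicate 1 or 3 or any 1 Bcl11b array. Over the alternatives the adjusted p ran from 0.0199 to 0.291 for Meis1, 0.0339 to 0.328 for Tbx3 and 0.0165 to 0.282 for Irx3. Under all 19 alternatives, Meis1, this Tbx3 probe, Irx3, Otx1, Cdx2 and Nr2f1 stayed lower and past the unadjusted and fold threshold. Same-numbered arrays deviated together at 0.68, -0.63, 0.18 and 0.70 (replicates 1 to 4). As 1 component held 65.8% of the deviations, these values cannot decide whether the numbers pair the samples. Not every array correlated best with its own number. The median of the 22 member probes was -0.83 without normalization, -0.21 without mock 2, mock 4 and Bcl11b 4, and -0.22 to -0.14 with 1 array left out. A detection limit of 0.05 gave 50 detected member probes in place of 33. The cause was not tested.

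Named probes whose direction reversed were, other than Hoxc10 and Ezh2, not past a threshold. Without normalization these were Dlx3 (-0.71), Hoxb2 (-0.66), Hoxc9 (-0.71), Msx1 (-0.37), Nkx2-5 (-0.18), 2 Pbx2 probes (-0.097 and -0.58), 2 Pbx3 probes (-0.39 and -0.42), Hoxc10 (-0.22) and Ezh2 (-0.30). With arrayWeights they were Dlx3 (-0.12), Hoxb4 (0.24), Hoxc6 (0.15) and Pbx2 (0.0097), and with division by the median Irx5 (0.098). Without mock 2, mock 4 and Bcl11b 4 they were Dlx3 (-0.30), Hoxb2 (-0.28), Hoxb4 (0.098), Hoxb6 (0.17), Hoxb9 (0.059), Hoxc9 (-0.16), Irx5 (0.13), Six4 (0.14), Tbx20 (0.022) and the second Tbx3 probe (0.17). With 1 array left out the ranges that crossed 0 were -0.17 to 0.14 for Hoxc6, -0.0061 to 0.54 for Pbx3, -0.14 to 0.28 for Hoxb2, -0.26 to 0.047 for Hoxb6, -0.20 to 0.021 for Hoxb9, -0.20 to 0.55 for Hoxc9, -0.065 to 0.057 for Irx5, -0.23 to 0.088 for Tbx20, -0.17 to 0.073 for the second Tbx3 probe, -0.16 to 0.16 for Dlx3, -0.23 to 0.011 for Dlx2 and -0.27 to 0.29 for Hoxb4.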
